A study of Mus musculus with 6 samples.

Results

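The promoters of the cytosolic ribosomal proteins were examined as a housekeeping reference by ATAC-seq in organoids from mouse NSCLC, non-small cell lung cancer. They were chosen by name alone: promoter peaks within 3 kb of a start whose assigned gene symbol is that of a large-subunit (Rpl, Rplp) or small-subunit (Rps) protein, with S6 kinase genes and pseudogene names left out. This gave 94 of the 42400 promoter peaks and of the 214414 peaks in all, assigned to 57 genes. In ATAC-seq a transposase cuts and tags accessible DNA, and organoids are tumour cells grown in 3-dimensional culture. The groups were organoids resistant (3 libraries) and sensitive (3 libraries) to immunotherapy, with NSCLC as the only cell type label and no strain, genotype, treatment or age given. Whether each library is a separate culture is not stated in the labels, and the p-values therefore reflect no more than the variation among these 6 libraries, which may be technical. All fold changes below are those of the authors' deposited table, in which positive values were read as higher in resistant organoids from the table's title. Were the title's order the other way, each direction would turn.

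The cytosolic ribosome translates nearly all cellular mRNA. Its large subunit joins amino acids and its small subunit reads the message, and the genes for its proteins lie scattered over most chromosomes yet are made in matched amounts. Most of their promoters are strong and active in dividing cells, but the paralogs Rpl3l and Rpl39l are known from particular tissues. Many of their transcripts begin in a run of pyrimidines, the terminal oligopyrimidine (TOP) tract through which the kinase mTOR and the RNA-binding protein LARP1 control their translation. ETS-family factors such as GABP are known to bind many of these promoters.

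Sequence of the starts was taken from RefSeq (GRCm38.p6, the assembly that mm10 names) for 42 of the 57 genes, as 250 bases before to 50 after the annotated start, 300 in all. The first 4 promoters below are shown because they carry the shared elements or the strongest peaks, each printed 5′ to 3′ on the gene's strand from 120 bases before to 30 after the start. Capitals mark a pyrimidine tract of at least 8 bases that reaches within 5 bases of the start, the ETS core CCGGAAG on either strand, or the element TCTCGCGA on either strand. Rpl35 (chr2:39005102-39005251, minus strand) has a tract of 18 bases across its start. Rpl37 (chr15:5116493-5116642, plus strand) has an ETS core upstream. Rpl15 (chr14:18270957-18271106, minus strand) has an ETS core and a tract of 17 bases. Rps6 (chr4:86857338-86857487, minus strand) holds all of them, with a tract of 10 bases and the TCTCGCGA element read on both strands in overlap.
Rpl35: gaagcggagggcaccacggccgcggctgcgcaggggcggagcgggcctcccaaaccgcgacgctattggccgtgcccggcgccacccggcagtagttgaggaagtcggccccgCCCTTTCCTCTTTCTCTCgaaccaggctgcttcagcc
Rpl37: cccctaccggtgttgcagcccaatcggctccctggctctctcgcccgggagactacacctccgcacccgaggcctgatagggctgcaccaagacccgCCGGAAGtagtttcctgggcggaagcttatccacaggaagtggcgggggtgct
Rpl15: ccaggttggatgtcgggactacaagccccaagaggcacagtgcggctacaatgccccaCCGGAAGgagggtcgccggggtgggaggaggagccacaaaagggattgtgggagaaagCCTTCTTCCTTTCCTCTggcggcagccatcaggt
Rps6: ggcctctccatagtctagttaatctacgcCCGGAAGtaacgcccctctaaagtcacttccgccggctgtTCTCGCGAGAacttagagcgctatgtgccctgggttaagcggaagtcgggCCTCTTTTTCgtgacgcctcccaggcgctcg

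The next 4 are shown because their genes carry called peaks. Rpl9 (chr5:65391402-65391551, minus strand), Rpl5 (chr5:107900408-107900557, plus strand) and Rpl3l (chr17:24732565-24732714, plus strand) had a lower peak over the printed start, and Rpl24 (chr16:55966155-55966304, plus strand) had a higher peak downstream of it. These windows have no capitals, which says only that the elements marked by capitals are not in them. Other words searched below were not marked.
Rpl9: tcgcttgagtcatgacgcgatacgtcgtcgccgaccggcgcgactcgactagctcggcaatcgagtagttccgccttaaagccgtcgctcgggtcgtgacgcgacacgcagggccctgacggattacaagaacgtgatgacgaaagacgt
Rpl5: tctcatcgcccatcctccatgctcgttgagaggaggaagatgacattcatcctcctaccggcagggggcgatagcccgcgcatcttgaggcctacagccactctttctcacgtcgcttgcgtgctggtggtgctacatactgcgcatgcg
Rpl3l: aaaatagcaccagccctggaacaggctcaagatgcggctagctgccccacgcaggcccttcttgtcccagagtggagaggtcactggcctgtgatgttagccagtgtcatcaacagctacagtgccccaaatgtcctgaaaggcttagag
Rpl24: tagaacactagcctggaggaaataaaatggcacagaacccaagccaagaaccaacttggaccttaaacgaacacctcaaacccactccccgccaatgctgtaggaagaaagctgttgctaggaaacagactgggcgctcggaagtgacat

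Among the 42 matched genes the ETS core CCGGAAG lay within the 300 bases, on either strand, in 18 (42.9%), against 2080 of 17491 RefSeq protein-coding promoters (11.9%). The element TCTCGCGA was in 6 (14.3%), against 1.52% of all promoters. A pyrimidine tract of at least 8 bases at the start was in 13 (31.0%), against 9.56%. The word CTCTTTCC, which can lie inside such a tract, was in 6 (14.3%), against 2.96%, and the word AAGATGG, part of sites of the factor YY1, was in 5 (11.9%), against 6.37%. The GC box GGGCGG was in 24 (57.1%) against 46.3%, the CCAAT box in 14 (33.3%) against 39.0%, and the TATA word TATAAA in 3 (7.14%) against 13.3%. All words were searched on both strands, the tract on the gene's strand only, with the first RefSeq start listed for each gene. The median GC content was 56.7% in these promoters and 56.3% in all. Genes with and without the ETS core overlapped in their change of accessibility: the peaks over their own starts had median log2 fold changes of -0.20 (16 genes, -0.44 to 0.15) and -0.22 (23 genes, -0.87 to 0.43) in the authors' deposited table. With and without the pyrimidine tract the medians were -0.20 (13 genes) and -0.20 (26 genes).

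Of the 94 peaks, 66 were annotated within 1 kb of a start, 11 between 1 and 2 kb and 17 between 2 and 3 kb. A single peak was assigned to each of 31 genes, a pair to each of 16, and 3 or more to each of 10, with at most 4. The genes were 34 of the large and 23 of the small subunit. The authors' deposited table gives an adjusted p for 81 of the 94 peaks, of 55 genes. The other 13 peaks had mean normalized counts of at most 14.5, below the 14.7 that is lowest among tested peaks, and their log2 fold changes ran from -1.08 to 1.15. Only untested peaks were assigned to Rpl30 and Rps3. The tested peaks had a median mean count of 70.8 (14.7 to 248) and a median width of 3901 bp, against 40.5 and 2781 bp for all 28815 tested promoter peaks. A RefSeq start of the assigned gene lay inside 51 of the tested peaks, 1 per gene, and these had a median mean count of 93.4. The 30 others, which hold no such RefSeq start, had 27.6, and 5 of them are listed at a distance of 0 from a start in the table's own annotation.

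Most ribosomal protein promoter peaks did not pass the test between resistant and sensitive organoids, and the few that did went both ways. In the authors' deposited table, 4 of the 81 tested peaks were lower and 4 higher at an adjusted p under 0.05, which is 4.94% each, and 73 did not pass. Over all tested promoter peaks, 10.2% were lower and 3.8% higher. At an unadjusted p under 0.05, 8 of the peaks were lower and 6 higher. Their median log2 fold change was -0.16 (middle 50% from -0.32 to 0.11), and that of all tested promoter peaks was -0.15 (-0.43 to 0.16). With 1 peak per gene, the strongest, 4 of 55 were lower (7.27%) and 1 higher (1.82%), against 13.9% and 3.58% of the strongest tested promoter peaks of 15494 gene IDs. In such bulk libraries fewer cells with an open promoter and less opening per cell cannot be told apart.

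The 4 lower peaks each covered a start of their own gene and lay on chromosomes 5 and 17. Rpl3l, a paralog of Rpl3 made in heart and skeletal muscle, had the largest decrease in the authors' deposited table, -0.87 ± 0.17 (SE, adjusted p = 1.36e-05), or 1.83-fold lower, at chromosome 17, 24732640 to 24739140. That peak of 6501 bp covers a downstream RefSeq start of Rpl3l and also the start of Msrb1, a methionine sulfoxide reductase gene, so its value is not that of Rpl3l alone. The peak of Rpl21, a large-subunit protein, stood at -0.66 ± 0.19 (SE, adjusted p = 0.00888; chromosome 5, 146831420 to 146836980). Rpl5, which with Rpl11 carries the 5S ribosomal RNA and can bind the p53 regulator MDM2, was at -0.63 ± 0.22 (SE, adjusted p = 0.0406; chromosome 5, 107898450 to 107902250). Rpl9, which sits near the stalk base of the large subunit, was at -0.56 ± 0.17 (SE, adjusted p = 0.00956; chromosome 5, 65384180 to 65395120), again as deposited by the authors. This peak of 10941 bp also covers the start of Lias, the lipoic acid synthase gene. All 4 decreases were smaller than 2-fold.

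None of the 4 higher peaks covered a RefSeq start of its own gene, and 3 of them lay on chromosome 16. The peaks of Rpl39l, a paralog of Rpl39 known from the testis, gained 1.35 ± 0.35 (SE, adjusted p = 0.00228; chromosome 16, 10171090 to 10173640) and 1.21 ± 0.40 (SE, adjusted p = 0.0237; 10168780 to 10170160) in the authors' deposited table. They flank the Rpl39l start without covering it, with mean counts of 27.7 and 20.9. A downstream peak of Rpl24, whose protein helps bridge the subunits, gained 1.06 ± 0.33 (SE, adjusted p = 0.0163; 55970020 to 55972100). The much stronger peak over the Rpl24 start itself, with a mean count of 114, was at 0.43 ± 0.18 (SE, adjusted p = 0.108) and did not pass. The last, a peak 1841 bp downstream of a start of Rps14, a small-subunit protein lost in the human 5q- syndrome, was at 1.36 ± 0.45 (SE, adjusted p = 0.0253; chromosome 18, 60778080 to 60779770). Its mean count of 16.2 is close to the lowest tested, and the peak over the Rps14 start was at 0.27 ± 0.23 (SE, adjusted p = 0.521). At the next rank, not past the threshold, stood peaks of Rps7 at 0.86 ± 0.32 (SE) and 0.70 ± 0.36 (SE), Rps10 at -0.62 ± 0.24 (SE) and an upstream peak of Rpl21 at -0.64 ± 0.29 (SE).

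**Figure D1:**
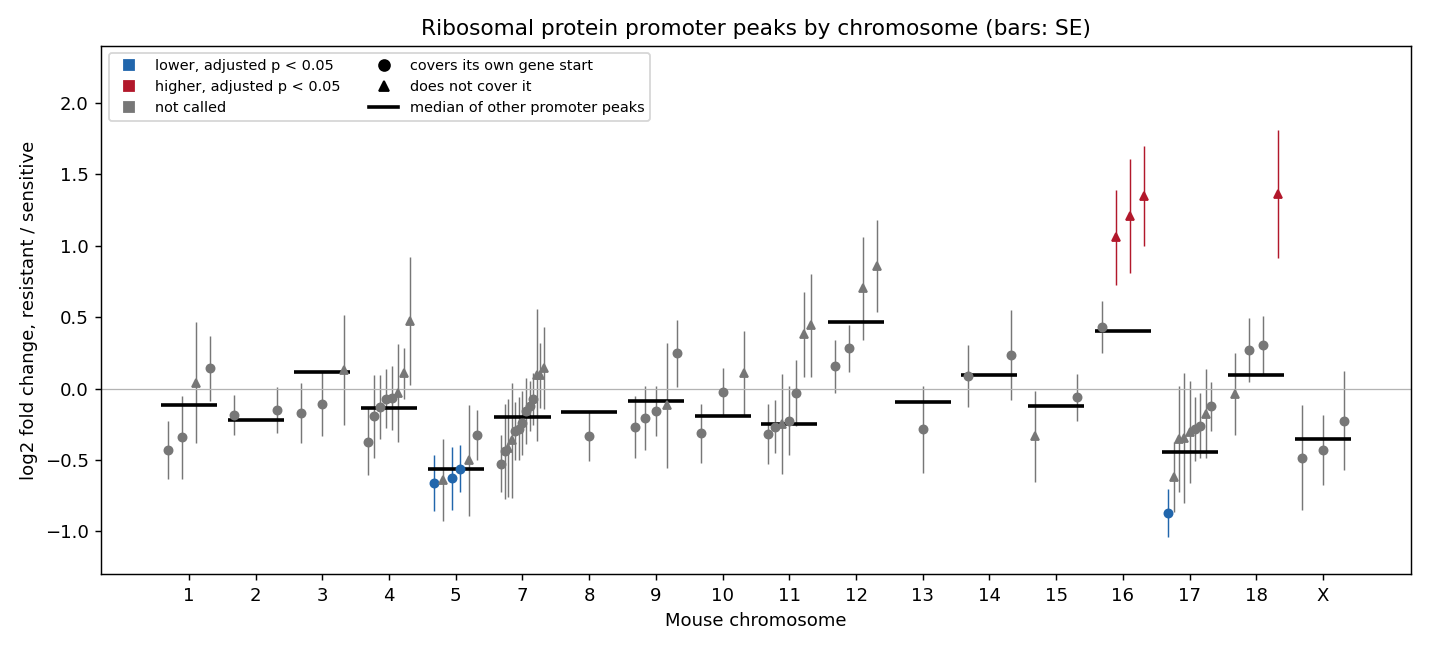
Log2 fold change (resistant over sensitive, vertical axis) of the 81 tested ribosomal protein promoter peaks by chromosome, with standard errors as bars, circles for peaks over their own gene's start, triangles for the others, and colour for the call. Black lines are medians of the other promoter peaks of each chromosome. The 4 lower peaks lie on chromosomes 5 and 17 and the 4 higher ones on 16 and 18.

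As a reference per chromosome, ribosomal protein promoters followed the level of the other promoters around them. Tested peaks lay on 18 chromosomes, all but 6 and 19 of the autosomes and X. The median of the ribosomal protein peaks had the sign of the median of the other promoter peaks on 17 of these, chromosome 3 being the exception (-0.10 against 0.12). They were above that reference on 9 chromosomes and below it on 9, and the median difference over chromosomes was -0.005 on the log2 scale. On chromosome 5, where the other 2563 promoter peaks had a median of -0.56, the 6 ribosomal protein peaks had a median of -0.59 and all lay between -0.66 and -0.32. On chromosome 17 the 9 peaks had a median of -0.30 (-0.87 to -0.12) and the reference was -0.44. On chromosome 12 the 4 peaks, of Rps7 and Rps29, had a median of 0.49 (0.15 to 0.86) beside 0.47. Chromosome 16 departed most, with a median of 1.13 over 4 peaks (0.43 to 1.35) beside 0.41 for its other promoters and 0.75 for all its tested peaks. Most of these 4 were weak, with mean counts of 20.9 to 28.9, and covered no RefSeq start of their gene. Over gene starts on chromosome 16, whatever the assigned gene, the 2 peaks (Rpl24 at 0.43 and Rpl35a at -0.11) had a median of 0.16. That is below the 0.41 of the other promoters, in a set defined after the values were seen.

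The other chromosomes had medians nearer 0, apart from X and chromosome 8, where the single peak was at -0.33 beside -0.16. On chromosome 7, which has the most peaks, 13 peaks of 8 genes had a median of -0.24 (-0.53 to 0.14) beside -0.20. On chromosome 4 the 8 peaks were at -0.07 beside -0.14, on chromosome 11 the 7 peaks were at -0.23 beside -0.25, and on X the 3 peaks were at -0.43 beside -0.35. Across the 18 chromosomes Pearson's r between both medians was 0.87 and Spearman's rho 0.79, and without chromosome 16 they were 0.89 and 0.75. The points share the same libraries and the authors' size factors, and 2 of them rest on a single ribosomal protein peak, so this is a description only.

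**Figure D2:**
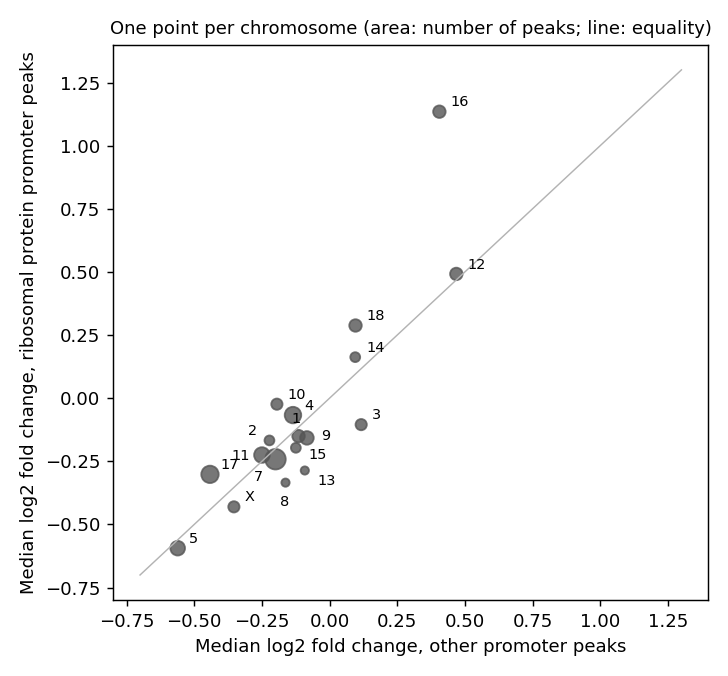
Median log2 fold change of the ribosomal protein promoter peaks (vertical axis) against that of the other promoter peaks (horizontal axis), 1 point for each of 18 chromosomes, with area by the number of ribosomal protein peaks and the line of equality. Chromosome 5 lies lowest (-0.59 and -0.56) and chromosome 16 highest (1.13 and 0.41). The chromosome 16 point rests mostly on weak peaks that cover no RefSeq start of their gene.

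Once the local level was subtracted, none of the 81 peaks was called. With the median of the tested peaks in the same 5 Mb window removed from each deposited fold change, the normal test with Benjamini-Hochberg adjustment called 0 lower and 0 higher (1 and 2 at an unadjusted p under 0.05). The same subtraction left 4.9% of all tested promoter peaks called lower and 1.55% called higher. At an unadjusted p under 0.05 it left 3025 lower and 1348 higher of those 28815. The counts for ribosomal protein peaks were also 0 with the chromosome median or the 20 nearest peaks of other genes subtracted. Shares of all promoter peaks are not given for these settings. The values that follow are with the window median subtracted. Rpl9 moved to -0.01, Rpl21 and Rpl5 both to -0.12, and Rpl3l to -0.39 (adjusted p = 0.195). Both Rpl39l peaks were then at 0.67 and 0.53 and the Rpl24 peak at 0.46, so they stayed on the higher side of their windows without passing. The Rps14 peak, in a window with a median of 0.23, was at 1.13 (adjusted p = 0.138). Of the peaks over their own start, Rpl37a (-0.44 ± 0.29 (SE)) lay lowest against its window and Rpl31 (0.31 ± 0.23 (SE)) highest, both on chromosome 1 and neither past the threshold.

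Once the windows were subtracted, the ribosomal protein fold changes spread about as widely as their errors. The standard deviation over the 81 peaks was 0.43 in the authors' deposited fold changes and 0.27 after the windows were subtracted, while the root mean square of their standard errors was 0.28. For the 28734 other tested promoter peaks these values were 0.51, 0.41 and 0.31. For the 51 peaks over their own start they were 0.26, 0.19 and 0.22. A fold change of more than 0.5 in size on the log2 scale was seen in 14 of the 81 peaks (17.3%) before and in 5 (6.17%) after the subtraction, against 30.3% and 18.3% of the other promoter peaks. The related lists varied. After the subtraction the standard deviation was 0.27 over the ribosome biogenesis peaks and 0.23 over the RNA polymerase II peaks. Their root mean square errors were 0.28 and 0.26. Proteasome peaks had 0.30 against 0.30, and ribosomal proteins that the name rule misses 0.26 against 0.31. Wider than their errors were peaks of mitochondrial ribosomal proteins (0.38 against 0.28) and of elongation and other TOP genes (0.39 against 0.29). By a smaller margin, so were those of initiation factors (0.34 against 0.29), upstream regulators (0.33 against 0.30), chaperonin (0.30 against 0.27, 11 peaks) and RNA polymerase I and III (0.30 against 0.28). These differences were not tested. Some lists hold single far peaks, such as Mrpl39 at -2.02 and Polr1a at -1.23 after the subtraction.

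**Figure D3:**
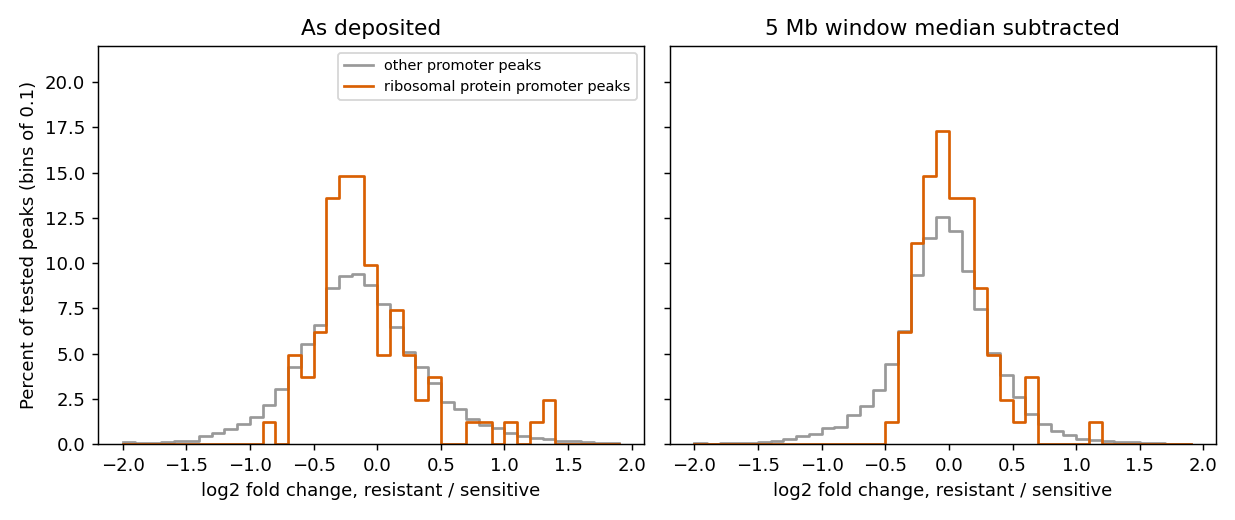
Distribution of log2 fold changes (horizontal axis, bins of 0.1; values beyond 2 in size are in the outermost bins) as percent of tested peaks, for ribosomal protein promoter peaks and other promoter peaks, as deposited (left) and after subtraction of the 5 Mb window median (right). The ribosomal protein peaks narrow from a standard deviation of 0.43 to 0.27, the others from 0.51 to 0.41.

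Strong promoter peaks in general had lower fold changes. Among other promoter peaks the median fell from -0.03 in the weakest of 20 bins of mean count to -0.30 in the strongest. With the trend over all tested peaks removed, 1 ribosomal protein peak (Rpl3l) was called lower and 8 higher, against 5.37% lower and 5.94% higher of all tested promoter peaks, and the median was 0.02. Among the 8 were the strong start peaks of Rpl24 (0.67, adjusted p = 0.00444), Rps29 (0.57, adjusted p = 0.0101) and Rpl17 (0.59, adjusted p = 0.041), values on the log2 scale with the trend removed. With window and trend both removed, 0 were lower and 0 higher, against 3.28% and 1.92% of all tested promoter peaks, and the median was 0.095. At an unadjusted p under 0.05, 0 were lower and 5 higher, against 2242 and 1766 of all 28815 tested promoter peaks. The 3 strongest peaks in the authors' deposited table were those of Rpl35, Rpl37 and Rps21, with mean counts of 248, 221 and 203. They were at -0.19 ± 0.14, -0.06 ± 0.16 and -0.15 ± 0.16 (SE), and none passed the test.

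**Figure D4:**
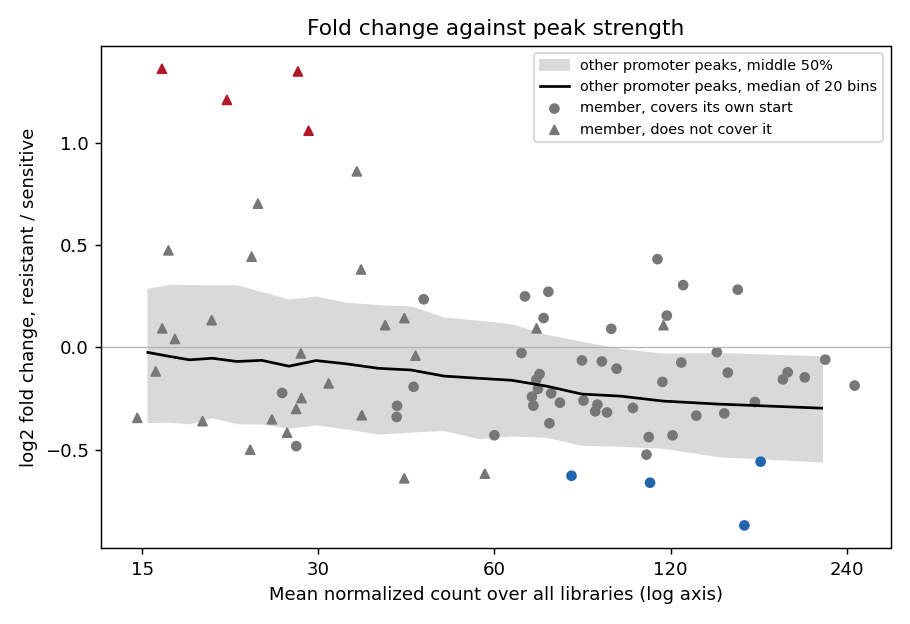
Log2 fold change against mean normalized count over all libraries (log axis) for the 81 tested ribosomal protein promoter peaks, coloured by call as blue for lower and red for higher, over the median and middle 50% of other promoter peaks in 20 bins. The 4 higher peaks have mean counts between 16.2 and 28.9 and the 4 lower ones between 81.3 and 171.

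By subunit, the authors' deposited table gives the large-subunit peaks a median of -0.19 (43 peaks, 4 lower and 3 higher) and the small-subunit peaks -0.10 (38 peaks, 0 lower and 1 higher by DESeq2; 2 and 2 at an unadjusted p under 0.05). The large-subunit share of 9.3% lower is near the 10.2% of all promoter peaks. With window medians subtracted these were -0.02 and 0.05. Rps6, the substrate of S6 kinase downstream of mTOR, had a start peak at -0.37 ± 0.23 (SE, adjusted p = 0.35). Of the 5S particle, the start peak of Rpl11 was at -0.13 ± 0.22 (SE, adjusted p = 0.801), while that of Rpl5 was lower, as given above; their windows had different levels and the difference between the genes was not tested. Rps19, the gene most often mutated in human Diamond-Blackfan anaemia, was at -0.12 ± 0.17 (SE). Rpl38, whose loss alters Hox mRNA translation in mice, was at -0.23 ± 0.24 (SE). Among the paralogs, Rpl22l1 was at -0.10 ± 0.22, Rpl7l1 at -0.26 ± 0.23 and Rps27l, a p53 target, at -0.20 ± 0.22 (SE) at their starts, and none passed. For Rpl10l and Rps4l no promoter peak was analysed here.

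The name rule leaves out many ribosomal protein starts, because a peak is assigned to 1 gene only and these genes lie close to others. RefSeq lists 83 protein-coding genes with such names, and 26 of them have no promoter peak under their own symbol. A start could be placed for 80 genes, and 77 of these starts lay under a peak. For 51 genes that peak was assigned to the gene itself and for 26 to another gene, often a neighbour or a small nucleolar RNA of an intron. The start of Rplp0, the scaffold of the ribosomal stalk, lay under a peak assigned to Pxn, at -0.44 ± 0.14 (SE, adjusted p = 0.021) in the authors' deposited table. The stalk gene Rplp2 lay under a peak assigned to Pidd1, at -0.06 ± 0.16 (SE), and Rplp1, assigned to itself, was at -0.27 ± 0.22 (SE). The lower peaks at other genes' names further included those over Rpl18 (assigned to Car11, -0.58 ± 0.12), Rpl36 (Micos13, -0.69 ± 0.17), Rpl41 (Zc3h10, -0.46 ± 0.16) and Rps2 (Rnf151, -0.48 ± 0.15; all SE). Whether the start of the assigned gene itself lies in these peaks was not checked, so their values may not be those of the ribosomal protein gene alone. The peaks over Rplp0, Rpl18 and Rps2 also cover the start of at least 1 further gene.

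Over all 77 start peaks, a set defined after the values were seen, the authors' deposited DESeq2 test calls 9 lower (11.7%) and 0 higher (2 at an unadjusted p under 0.05), beside 10.2% lower of all tested promoter peaks and 13.9% of the strongest per gene. Their median was -0.22, and their log2 fold changes ran from -0.87 to 0.43. They were strong and broad, with a median mean count of 114 and a median width of 5521 bp. With window medians subtracted, 1 was lower and 0 higher. That 1 was the peak over Rpl18, 27131 bp wide with the starts of several other genes, at -0.41 (adjusted p = 0.016). With window and trend both subtracted it was at -0.22 (adjusted p = 0.434), and the 1 call was higher, the peak over Rpl12 at 0.43 (adjusted p = 0.0365).

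Other genes of ribosome production are given for comparison, with the ribosomal protein peaks at 4 lower and 4 higher of 81. Of 85 tested promoter peaks of ribosome biogenesis genes, 5 were lower and 0 higher (2 at an unadjusted p under 0.05), with a median of -0.21. The lower ones included Noc4l (-0.72 ± 0.19) and Nop14 (-0.65 ± 0.20; both SE), which act in pre-ribosomal RNA processing and lie on chromosome 5. Of 52 peaks of RNA polymerase I and III genes, 6 were lower and 0 higher (4 at an unadjusted p under 0.05). The catalytic subunit gene of polymerase I, Polr1a, was at -1.14 ± 0.24 (SE), and at -1.23, still called, without its window's median. Gtf3a, the 5S gene transcription factor, was at -0.84 ± 0.21 (SE) as deposited and at -0.30, not called, without it. Of 59 peaks of upstream regulators, 2 were lower and 0 higher (0 at an unadjusted p under 0.05). These were Eef2k, the kinase that brakes elongation (-1.41 ± 0.26, and -1.15 and still called without its window's median), and Rheb, the GTPase that activates mTOR (-0.57 ± 0.16, and -0.05 without it; both SE).

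Among translation initiation factors, the authors' deposited table calls 3 of 50 peaks lower and 2 higher, with Eif2b4 at -0.91 ± 0.14 and Eif2b2 at 1.21 ± 0.27 (SE), both subunits of the exchange factor for eIF2. Subtracting the window median moved them to -0.36 and 0.62, neither of them called. Among elongation factors and other genes with TOP mRNAs 2 of 39 were lower and 1 higher, the higher being Vim (1.24 ± 0.20 (SE)), an intermediate filament gene of mesenchymal cells that the list holds for its TOP tract. The lower ones were Eif3k and Eif3h, at -0.61 ± 0.18 and -0.60 ± 0.19 (SE). Of 81 peaks of mitochondrial ribosomal protein genes, 9 were lower and 0 higher (2 at an unadjusted p under 0.05), with a median of -0.18. Mrpl39 was at -1.27 ± 0.28 (SE) although its window on chromosome 16 was high, and was at -2.02 against it. Mrpl33 was at -0.99 ± 0.16 (SE), and at -0.44, not called, without its window's median. A lower initiation factor peak, that of the eIF3 subunit gene Eif3j1, was at -0.85 ± 0.23 (SE). Of proteasome genes 5 of 61 were lower and 4 higher, of chaperonin genes 2 of 11 and 0 (0 at an unadjusted p under 0.05), and of RNA polymerase II genes 1 of 16 and 0 (0 at an unadjusted p under 0.05). Psmb9, an immunoproteasome subunit, was at -1.23 ± 0.21 and Psma7, a core subunit, at -0.84 ± 0.19, while the core subunit Psma6 was at 1.01 ± 0.31 and the ATPase subunit Psmc1 at 0.68 ± 0.21 (all SE). The chaperonin genes Cct6a and Cct8 were at -0.79 ± 0.19 and -0.80 ± 0.28 (both SE). Subtracting the window median moved Cct6a to -0.33 and turned Cct8 to 0.51, neither of them called. The polymerase subunit gene Polr2e was at -0.56 ± 0.18 (SE). The ribosomal proteins that the name rule misses had 7 tested peaks, of Rpsa, Rack1 and Rpl36al, between -0.31 and 0.49 in the authors' deposited table, with 0 lower and 0 higher by DESeq2 (0 and 0 at an unadjusted p under 0.05). Of the peaks named from these lists, the ones still called with the window median subtracted were those of Polr1a, Eef2k, Eif3h, Vim, Mrpl39, Psmb9 and Psma7. All these shares stand beside the 10.2% lower and 3.8% higher of all promoter peaks. The counts at an unadjusted p under 0.05 stand beside 5281 lower and 2133 higher of all 28815 tested promoter peaks.

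**Figure D5:**
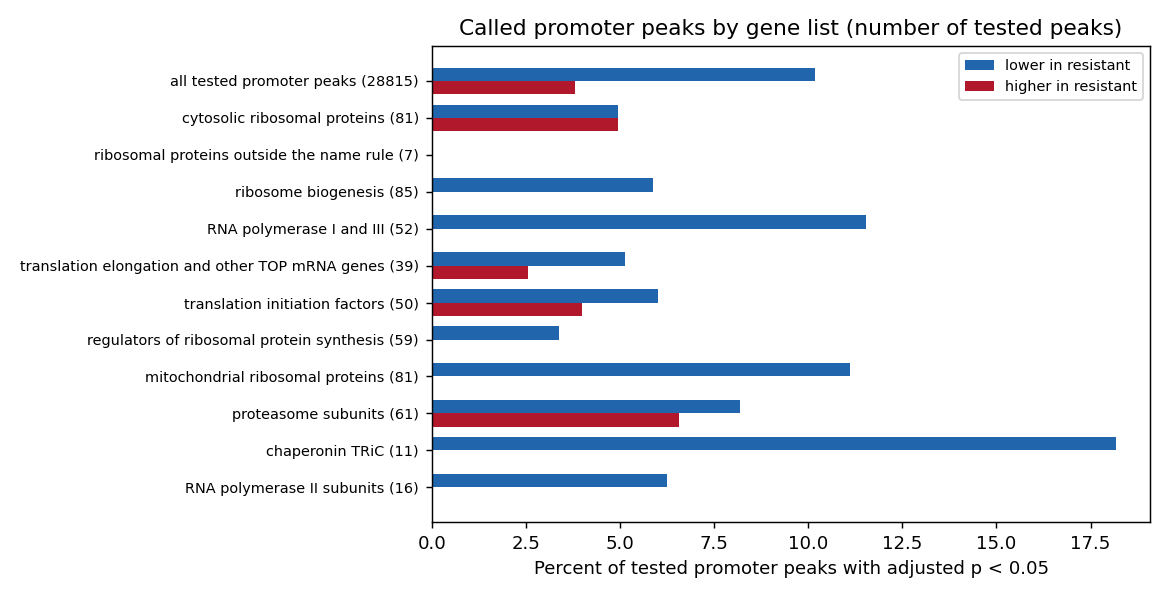
Percent of tested promoter peaks with an adjusted p under 0.05 (horizontal axis) that were lower (blue) or higher (red) in resistant organoids, for all promoter peaks, ribosomal protein peaks and related lists, with the number of tested peaks in brackets. Ribosomal protein peaks stand at 4.94% each way, all promoter peaks at 10.2% and 3.8%.

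Markers of the cell types were read from the strongest promoter peak of each gene. The epithelial genes Krt8, Krt18, Cdh1, Krt19 and Epcam had mean counts of 785, 570, 562, 507 and 87.2 there. The mesenchymal genes Vim, Twist1, Zeb1 and Col1a2 had 118, 38.6, 21.8 and 15.6. No promoter peak of the leukocyte genes Ptprc and Lyz2 was analysed here, and that of Cd3e had a mean count of 12. The endothelial genes Pecam1 and Cdh5 had mean counts of 27.6 and 15.97, close to those of Zeb1 and Col1a2. Their log2 fold changes in the authors' deposited table were 0.024 and 0.43. Counts this low therefore do not show by themselves which cell types were present. In the authors' deposited table these 5 epithelial peaks were all lower in resistant organoids (log2 fold changes of -1.63 to -1.03) and these 4 mesenchymal ones all higher (1.24 to 2.03), each at an adjusted p under 0.05. The part of such cell state differences in the ribosomal protein values was not tested.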

How the data were processed

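ATAC-seq libraries from resistant (3) and sensitive (3) organoids were compared. Per the submitters' processing notes, which state no roles, DESeq2 1.26.0 and ChIPseeker 1.22.1 in R 3.6.1, featureCounts, deepTools, Bowtie2 2.2.1, GATK 4.1.3 and SAMtools 1.8 were used with build mm10. Not given in the sources used here: the peak caller, duplicate removal, Tn5 shift, and how reads that map to several places, such as exons with pseudogene copies, were handled.

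The authors deposited 1 table. Per the file headers it gives, for each peak, the mean count normalized over all libraries (a signal), the DESeq2 log2 fold change and its error on the log2 scale, the Wald score, the p-value and adjusted p-value, and other columns such as peak width and distance to the start in bp. The 6 library columns match no sample label and were not used, so depth per library and the values of each library are not given here. The error of each fold change carries the precision.

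Calls are adjusted p under 0.05, adjusted by Benjamini-Hochberg over all tested peaks. Local subtraction used the median of tested peaks per 5 Mb window (of the chromosome where a window had under 20), kept the deposited error and repeated a two-sided normal test with adjustment over all tested peaks; the error of the median itself was not added. It was checked on simulated data with a constant shift per chromosome and changes of at least 2-fold. That check covers neither smaller changes nor shifts that vary within a chromosome. The alternatives are a chromosome median, the 20 nearest peaks of other genes, 20 bins of mean count, filters on count, width and distance, and other thresholds. Starts came from RefSeq's promoter table for 63 genes, and for 17 from RefSeq gene ends with the deposited strand. Named genes are all called peaks, the 6 highest and 6 lowest, the 3 strongest, paralogs, stalk, 5S particle and Rps6, and up to 2 per list and direction by smallest p. Rps19, Rpl38, Rpl37a, Rpl31, Rps29 and the peaks assigned to other genes were named after their values were seen. Members, lists and motifs were chosen with earlier results of these data known. The software was SciPy 1.17.1, NumPy 2.4.6, pandas 2.3.3 and Matplotlib 3.10.9 under Python 3.11.15.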

Additional observations from a re-analysis of the deposited data

How the results depend on the processing

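The count of 4 lower ribosomal protein peaks became 0 with the 5 Mb window median, the chromosome median, the 20 nearest peaks, or window and trend with mean count both subtracted, and 0 when a 2-fold change was also required. It was 1 with the trend alone subtracted, 1 with peaks up to 5 kb wide, and 9 over gene starts whatever the assigned gene, a set chosen after seeing the data. The count of 4 higher peaks became 0 under those same 4 subtractions, at a mean count of at least 50, over gene starts and over members' own starts (chosen after seeing the data), 1 at an adjusted p under 0.01, 1 with 1 peak per gene, and 8 with the trend subtracted. The other filters and thresholds kept both counts within 1.5 times. Shares of all promoter peaks are given above only for the window, the trend, both together and 1 peak per gene. For the other settings these counts do not show whether ribosomal protein peaks differ from promoter peaks in general. The median of -0.16 was 0.095 with window and trend subtracted, and that of the large subunit (-0.19) was 0.10. Rpl9 turned to 0.17 and Rpl21 to 0.0082 there, neither past the threshold. The cause of these changes was not tested, beyond what each subtraction removes by construction. Of the 8 called peaks, 5 kept their call with the trend subtracted and 6 with no filter on low counts, where Rps14 (adjusted p = 0.051) and Rpl5 (0.080) lost theirs. No paired analysis was possible because the library columns carry no label of a sample, and for the same reason leaving out single replicates was not run. Low counts limit the peaks that hold no RefSeq start of their gene, whose median standard error was 0.35 against 0.22 over those starts.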
